A study of Mus musculus with 3 samples.

Results

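The thioredoxin and peroxiredoxin system was described here through Nrf2 peaks at the loci of 4 genes, Txnrd1, Txn1, Prdx1 and Srxn1. A peak was a member when it overlapped the window drawn around its gene in the mm9 build: chromosome 10 from 82250000 to 82410000 for Txnrd1, chromosome 4 from 57900000 to 58020000 for Txn1, chromosome 4 from 116300000 to 116430000 for Prdx1, and chromosome 2 from 151880000 to 151990000 for Srxn1. This gave 5 of the 2892 peaks listed for replicate 1 and 7 of the 3593 listed for replicate 2. The assay was ChIP-seq, the sequencing of DNA recovered with an antibody against Nrf2, in C2C12, a wild-type mouse myoblast line, after differentiation into myotubes for 72 h. All samples, the 2 Nrf2 ChIP replicates and the 1 input, received CDDO-Im at 100 nmol/L for 3 h, so the lists show where Nrf2 signal lay in treated cells and give no comparison with untreated ones. CDDO-Im, a triterpenoid made by synthesis, is known to activate Nrf2. Each ChIP replicate has its own peak list, and input reads were not used here. The sources used here give neither the read depth nor whether the replicates were separate cultures, so the spread between them may be technical.

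The thioredoxin system passes electrons from NADPH to oxidised proteins and peroxides. Thioredoxin reductase 1, the product of Txnrd1, is a selenoprotein that takes electrons from NADPH and hands them to thioredoxin, the product of Txn1, which reduces disulfides in its target proteins. Peroxiredoxin 1, the product of Prdx1, reduces hydrogen peroxide and is itself reduced by thioredoxin, and sulfiredoxin, the product of Srxn1, restores peroxiredoxins whose catalytic cysteine has been over-oxidised. Nrf2 is kept low by Keap1 in unstressed cells. Once stabilised, it binds with small Maf proteins to antioxidant response elements, short sequences whose core is commonly written TGANNNNGC or, more strictly, TGACNNNGC, where N is any base. The 4 genes are widely used as Nrf2 targets.

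The promoter sequences of the 4 genes are shown because they carry, or lack, the letters of that core, and because every locus held an Nrf2 peak. They are the 250 bases before each RefSeq gene start, in the GRCm38.p6 assembly, written 5′ to 3′ on the strand of the gene. That is a different build from the mm9 of the peak lists. Positions were not converted between builds, so whether a peak covers any of these stretches, and how far each peak lies from a gene start, was not analysed here. The sequence is the reference one and not read from C2C12. Capitals mark the letters of TGANNNNGC on either strand. Txnrd1 has 3 start windows in the table, and the second is shown, since it alone of the 3 also holds TGACNNNGC.
Txnrd1 (chr10:82858956-82859205, plus strand): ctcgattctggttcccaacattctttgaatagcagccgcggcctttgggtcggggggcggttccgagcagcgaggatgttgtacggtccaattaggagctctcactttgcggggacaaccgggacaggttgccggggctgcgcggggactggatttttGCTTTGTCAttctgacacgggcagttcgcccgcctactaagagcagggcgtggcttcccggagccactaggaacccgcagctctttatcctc
Txn1 (chr4:57956412-57956661, minus strand): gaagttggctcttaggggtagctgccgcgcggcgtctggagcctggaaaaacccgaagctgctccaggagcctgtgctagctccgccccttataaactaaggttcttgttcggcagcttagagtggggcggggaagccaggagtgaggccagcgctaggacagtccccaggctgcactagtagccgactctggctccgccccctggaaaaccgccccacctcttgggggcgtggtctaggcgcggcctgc
Prdx1 (chr4:116685349-116685598, plus strand): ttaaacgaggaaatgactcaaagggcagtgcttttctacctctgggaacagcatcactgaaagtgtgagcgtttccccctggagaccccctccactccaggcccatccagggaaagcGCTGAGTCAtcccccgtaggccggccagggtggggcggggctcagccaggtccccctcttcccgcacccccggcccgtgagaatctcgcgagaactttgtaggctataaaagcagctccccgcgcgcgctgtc
Srxn1 (chr2:152105274-152105523, plus strand): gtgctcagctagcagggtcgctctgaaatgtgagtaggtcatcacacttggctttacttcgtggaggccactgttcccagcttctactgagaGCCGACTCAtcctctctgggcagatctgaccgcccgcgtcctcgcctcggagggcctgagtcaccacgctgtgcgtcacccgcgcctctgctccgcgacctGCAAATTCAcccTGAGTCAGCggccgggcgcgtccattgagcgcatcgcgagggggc

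The core was found in the promoter windows of 3 of the 4 genes, Txnrd1, Prdx1 and Srxn1. The search covered both strands of 300 bases per start, the 250 before it and the 50 from the start onwards. In Srxn1 the core occurred 4 times, at -158 to -150, -57 to -49 and -45 to -37 before the start and at 29 to 37 after it, where negative positions count back from the base just before the start and positive ones count forward from the start itself. In Prdx1 it occurred at -133 to -125 and at 16 to 24. In the windows of Txnrd1 it occurred once at the second start (-92 to -84, which reads TGACAAAGC on the opposite strand) and once at the third (-84 to -76). The window of Txn1 held no match. Counted by window, TGANNNNGC was present in 4 and TGACNNNGC in 3 of the 6 windows of these genes. These letters are common: TGANNNNGC was present in 41.3% and TGACNNNGC in 12.4% of the 32851 promoter windows of 27025 genes. Every TGACNNNGC match is also a TGANNNNGC match. A longer form, TGANTCAGC, which joins the core to a TGANTCA site, was searched after the sequences had been seen. It was present in 1.19% of all windows and in 2 of the 6 here, those of Srxn1 (TGAGTCAGC at -45 to -37) and Prdx1 (TGACTCAGC on the opposite strand at -133 to -125). A match of letters is not evidence of binding at that position.

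All 4 loci held a peak in both replicates, and 5 regions in all were found by both, 2 at Txnrd1 and 1 at each of Txn1, Prdx1 and Srxn1. Prdx1 had 2 further peaks that only the list of replicate 2 contained. An overlap of 1 bp or more between the lists counted as shared. All 5 member peaks of replicate 1 had a partner, against 66.1% of the whole list, and 5 of the 7 of replicate 2 had one, against 50%. As a background for the loci, the numbered chromosomes and X were divided into tiles as wide as each window. A shared region fell in 6.22% of 16307 tiles of the width used for Txnrd1, in 4.92% of 21748 tiles for Txn1, in 5.25% of 20077 for Prdx1 and in 4.55% of 23723 for Srxn1. The 4 genes were chosen with earlier results of these peak lists known, so these shares serve as background only.

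**Figure D1:**
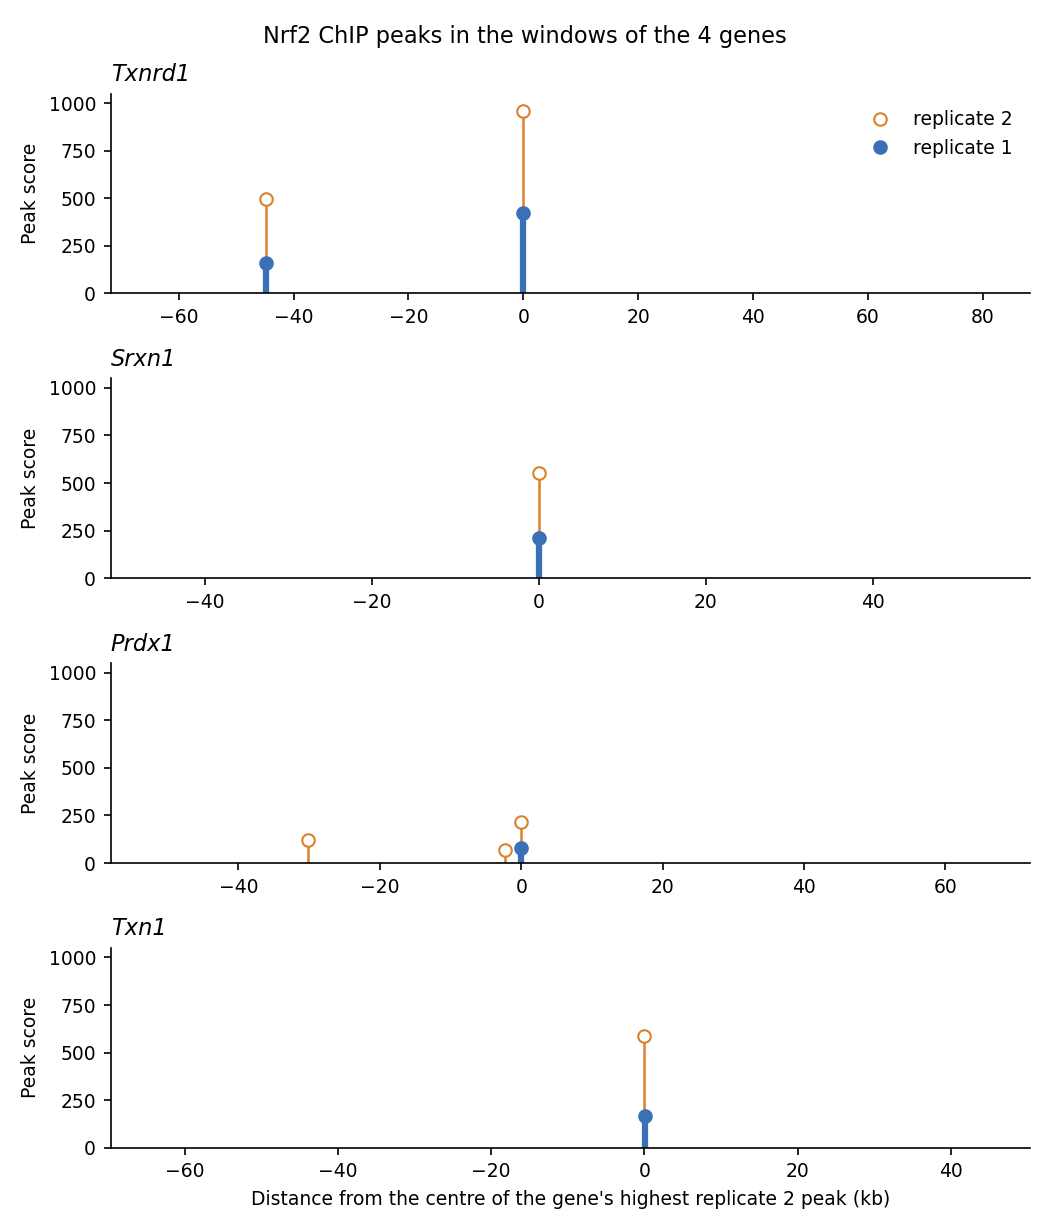
Peaks of replicate 1 (filled blue) and replicate 2 (open orange) in the window of each gene; the horizontal axis is the distance in kb from the centre of that gene's highest replicate 2 peak and the vertical axis the authors' peak score. Blue and orange peaks coincide at 5 places, and the 2 remaining orange peaks are both in the Prdx1 panel.

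Txnrd1, the reductase that feeds the system, had the strongest peak of the 4 loci in both replicates. The peak lay on chromosome 10 and spanned 82321473 to 82322184 in replicate 1 and 82321434 to 82322259 in replicate 2. Its score, the authors' own value, which is higher the less likely the peak caller held the peak to be background, was 424 in replicate 1 and 960 in replicate 2. Within the lists it ranked 53 of 2892 and 52 of 3593, which placed it in the top 1.83% and 1.45%. The position of this peak in the order of each list therefore differed by a single place, although the lists differ in length and in the range of their scores.

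Txnrd1 was also the only one of the 4 loci with a second region in both lists. The weaker region spanned 82276682 to 82277365 in replicate 1 (score 158, rank 423, top 14.6%) and 82276559 to 82277453 in replicate 2 (score 498, rank 173, top 4.81%). The centres of the weaker and stronger peak were 44.8 kb apart in both replicates. Of the 1750 regions found by both replicates on all chromosomes, 50.5% had another such region within 50 kb. Only 903 of the 1750 lie on chromosomes 2 to 19, and the share among those was not analysed here. No further peak of either list lay within 100 kb of the pair. The weaker region lay at lower coordinates. In the RefSeq order of protein-coding genes, Hcfc2 and Nfyb, a subunit of the NF-Y transcription factor, precede Txnrd1, while Eid3 overlaps it and Chst11 follows. Which of these genes, if any, the weaker region belongs to was not analysed here.

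Txn1, the thioredoxin that the reductase recharges, had a single peak in each list on chromosome 4. It spanned 57969333 to 57970085 in replicate 1, with a score of 168 and rank 385 (top 13.3%). In replicate 2 it spanned 57969298 to 57970058, with a score of 589 and rank 123 (top 3.42%). In replicate 2 this was the second-ranked locus of the 4, and in replicate 1 the third. The nearest other peak of the list was 423 kb away in replicate 1 and 319 kb away in replicate 2. The promoter of Txn1 printed above is the one of the 4 without the core letters. The window of the first Txnrd1 start, which is not printed, also lacks them. In RefSeq gene order Txn1 lies between D630039A03Rik and Txndc8, a thioredoxin-domain gene, followed by Svep1.

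Prdx1, the peroxidase, had the weakest shared region of the 4 loci, with 1 peak in replicate 1 and 3 in replicate 2. The shared region lay on chromosome 4 and spanned 116357762 to 116358427 in replicate 1, where its score of 79.2 ranked 1468, in the lower part of the list at 50.8%. In replicate 2 it spanned 116357664 to 116358489, with a score of 217 and rank 597 (top 16.6%). Of the peaks of replicate 1 with a score from 75 to 100, 69.9% had a partner, so a partner at this score was the usual case in the list as a whole.

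The 2 peaks that only replicate 2 listed at Prdx1 scored below its shared region, 1 of them under and 1 above the list's median of 88.7. One spanned 116355609 to 116356054, with a score of 69.8 and rank 2395 (66.7% of the list), and its centre was 2245 bp from that of the shared region. The other spanned 116327616 to 116328236, with a score of 119.63 and rank 1252 (34.8%), and lay a further 27.9 kb away. Among all peaks of replicate 2, 30.1% of those with a score from 50 to 75 and 54% of those with a score from 100 to 150 had a partner in replicate 1. A missing partner at these scores was therefore common in the list as a whole, and with the depth unknown no difference between replicates was read from it. In RefSeq gene order Akr1a1, an aldehyde reductase that uses NADPH, precedes Prdx1, and Mmachc, which processes vitamin B12, follows it. The peaks were not assigned among these genes.

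Srxn1, the enzyme that repairs over-oxidised peroxiredoxins, had a single peak in each list on chromosome 2. It spanned 151930967 to 151931485 in replicate 1, with a score of 213 and rank 254 (top 8.78%). In replicate 2 it spanned 151930864 to 151931622, with a score of 555 and rank 140 (top 3.90%). It was the most isolated of the 4 loci: the nearest other peak of the list was 1550 kb away in replicate 1 and 909 kb away in replicate 2. Its promoter window held the most matches to TGANNNNGC of the 4 genes. For the stricter TGACNNNGC it held a single match, as did Prdx1 and Txnrd1. In RefSeq gene order Srxn1 lies between Scrt2 and Tcf15, a transcription factor of the mesoderm.

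In both replicates the strongest peak of Txnrd1 came first and the best peak of Prdx1 last, and the order between them was only partly the same. Srxn1 ranked before Txn1 in replicate 1 (254 and 385) and after it in replicate 2 (140 and 123). The weaker region of Txnrd1 followed both in each replicate (423 and 173). Within each list these 3 regions stood between the stronger Txnrd1 region (53 and 52) and the Prdx1 region (1468 and 597). With 2 samples of 1 group no test of these differences was made. When the 1750 regions found by both replicates were ordered by the worse of their ranks, the stronger Txnrd1 region stood at 37, Srxn1 at 149, Txn1 at 213, the weaker Txnrd1 region at 234 and Prdx1 at 804.

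**Figure D2:**
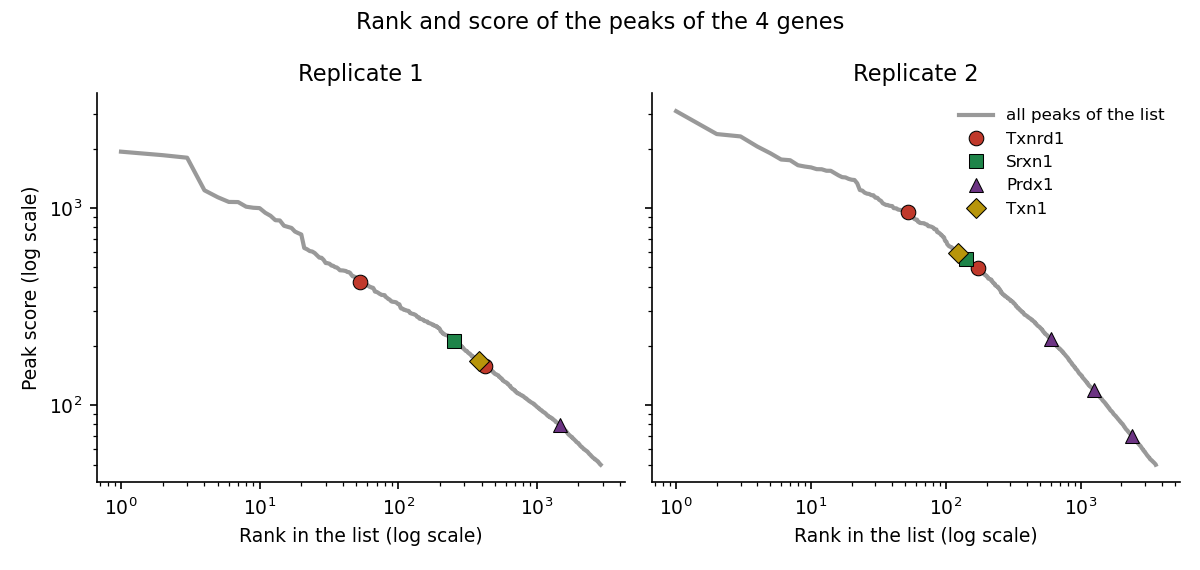
Score of every peak against its rank in the list of replicate 1 (left) and replicate 2 (right), both axes on a log scale; the grey line is the whole list and the symbols are the peaks of the 4 genes. The stronger Txnrd1 peak sits at rank 53 and 52, Srxn1, Txn1 and the weaker Txnrd1 peak sit close together, and all Prdx1 peaks are further down.

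In replicate 1, 2 of the 5 member peaks scored 200 or more, against 9.85% of the list. These were the stronger Txnrd1 peak and that of Srxn1. In replicate 2, 5 of the 7 did, against 18.4% of the list, and these were the same 5 regions that both replicates shared. Those list shares cover all chromosomes and include peaks without a partner. Over the 903 shared regions on chromosomes 2 to 19, where all the members lie, the median score was 93.8 in replicate 1 and 199 in replicate 2. A score near 200 in replicate 2 was therefore usual among such regions. No member had the top score of its list, which was 1933 in replicate 1 and 3100 in replicate 2.

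Each of the 5 shared regions had the higher score in replicate 2. The ratio of the score in replicate 2 to that in replicate 1 was 2.27 at the stronger and 3.15 at the weaker Txnrd1 region, 2.61 at Srxn1, 2.74 at Prdx1 and 3.51 at Txn1. Over all 1750 shared regions the median ratio was 1.29, and 66.1% scored higher in replicate 2. Over the 903 on chromosomes 2 to 19, where all the members lie, the median was 2.06 (interquartile range 1.13 to 2.93) and 81.7% scored higher in replicate 2. Against those 903 regions the members' ratios stood at percentile 56.5 for the stronger Txnrd1 region, 66.2 for Srxn1, 70.3 for Prdx1, 79.5 for the weaker Txnrd1 region and 86.4 for Txn1. The scores depend on depth, which is unknown here, so the ratios describe the lists and no difference in binding was read from them.

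**Figure D3:**
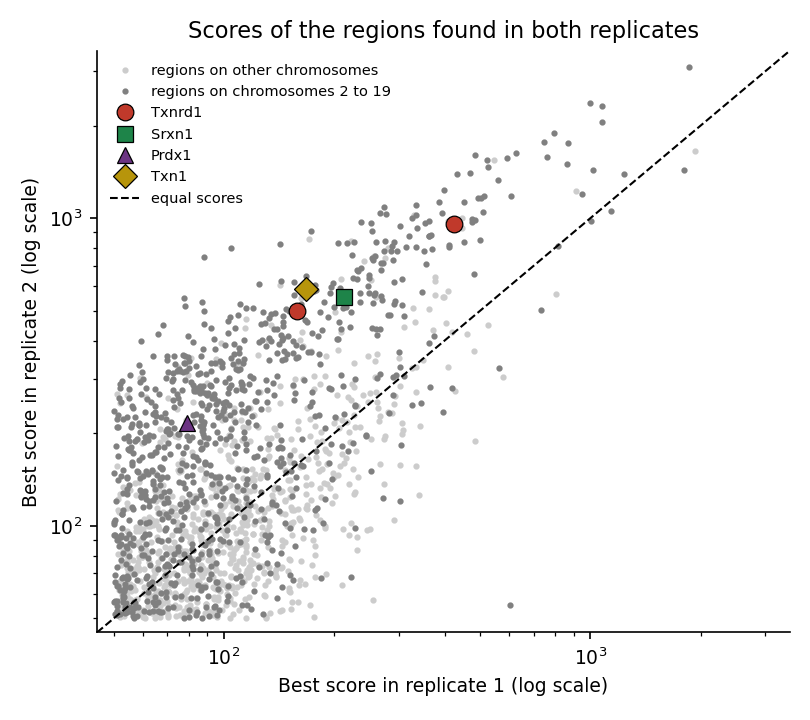
Best score in replicate 2 against best score in replicate 1 for the 1750 regions found in both, both axes on a log scale; dark grey points lie on chromosomes 2 to 19, light grey points elsewhere, and the dashed line marks equal scores. The 5 member regions all lie above the line, with ratios from 2.27 to 3.51.

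The replicates placed the peaks of the 5 shared regions at nearly the same centres. The centres differed by 18 bp at the stronger and 17.5 bp at the weaker Txnrd1 region, by 17 bp at Srxn1, 18 bp at Prdx1 and 31 bp at Txn1. The median over all 1750 shared regions was 45.3 bp, and over the 903 on chromosomes 2 to 19 it was 40 bp. The peaks were 519 to 753 bp wide in replicate 1 and 759 to 895 bp in replicate 2. In 4 of the 5 regions the peak of replicate 1 lay wholly inside that of replicate 2, as it did in 72.5% of shared regions on chromosomes 2 to 19. The exception was Txn1, where the peak of replicate 1 reached 27 bp beyond that of replicate 2 and the widths differed by 8 bp. The largest difference in width, 240 bp, was at Srxn1.

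**Figure D4:**
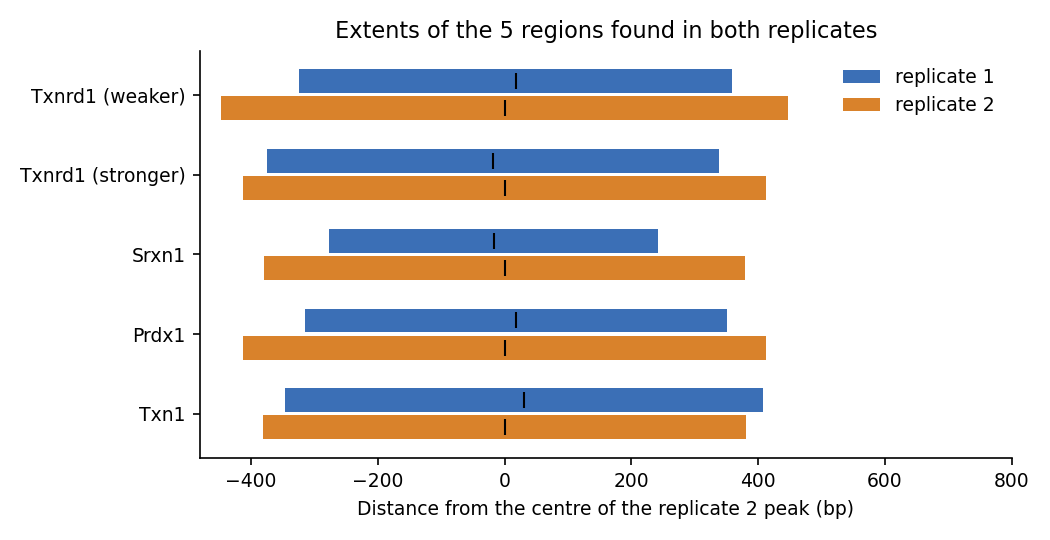
Extent of the replicate 1 (blue) and replicate 2 (orange) peak at each of the 5 regions found in both, aligned on the centre of the replicate 2 peak; the horizontal axis is in bp and black ticks mark the centres. Centres differ by 17 to 31 bp, and only at Txn1 does the blue bar reach past the orange one.

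The windows set which peaks were members, and no peak lay near their edges. Of the member peaks, the one closest to an edge was the weaker Txnrd1 peak, 26.6 kb inside in replicate 2 and 26.7 kb inside in replicate 1. The Prdx1 peak of replicate 2 with a score of 119.63 was 27.6 kb inside. The closest peak outside any window was 224 kb beyond the Prdx1 window in each list, and scored 68.3 in replicate 1 and 118 in replicate 2. The next was 268 kb beyond the Txn1 window in replicate 2, with a score of 162, and at 372 kb replicate 1 had one with a score of 168. Beyond the Txnrd1 window the nearest peak was 374 kb away in both lists, with scores of 83.6 and 274. Around the Srxn1 window the nearest was 1499 kb away in replicate 1 and 857 kb away in replicate 2.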

How the data were processed

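Per the labels' protocols, C2C12 myotubes were treated with CDDO-Im, formaldehyde-fixed and precipitated with anti-Nrf2. The submitters' processing notes name bcl2fastq 2.15.0, Bowtie2 (no version given), MACS 1.4 and the mm9 build, without roles or settings, and do not name the control used for the peak lists. The deposited peak lists, 1 per ChIP replicate, give position and score. The score is the authors' deposited value, and was taken to be -10 times log10 of a p-value, the quantity that MACS 1.4 writes, since the lowest scores are 50. It served for ranking and filtering inside each list only.

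Peaks were selected by window and ranked by score within the list, with ties given the better rank. Chains of peaks overlapping by at least 1 bp were merged into shared regions. Starts were converted to count from 1. The overlap code was tested on simulated lists. The named genes are the 4 members, with every peak in their windows, and up to 3 protein-coding neighbours on each side in RefSeq gene order. The members, lists and settings were chosen with earlier results of these data known. No p-values were computed, since there is 1 group of 2 samples. A further 15 genes of the system and distances to gene starts needed an mm9 annotation and were not analysed here. Promoters come from RefSeq (GRCm38.p6), where all 4 genes matched by symbol. Alternatives changed the windows, the overlap, the score minimum, the peaks ranked and the motif. Analyses used Python 3.11.15, NumPy 2.4.6, pandas 2.3.3 and matplotlib 3.10.9.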

Additional observations from a re-analysis of the deposited data

How the results depend on the processing

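Of 29 alternative values, 23 stayed within 1.5 times the main count or within the spread of the replicates, and 6 moved further. That spread was the standard deviation of 2 values, so it was a loose limit where the replicates differed. The summed scores of Srxn1 and Txn1 could not move, because each list held a single peak at these loci. The count of 23 is therefore no measure of robustness. All 5 shared regions were found with overlap of at least 50% of both peaks, with centres within 200 bp, and with windows 50 kb wider or 25 kb narrower on both sides. These settings could not change the count either. The smallest overlap was 68.4% of a peak, and centres differed by at most 31 bp. No member lay closer than 26.6 kb to a window edge, and no outside peak closer than 224 kb. With scores of at least 100, or with the 1000 highest-scoring peaks of each list, 4 were found, because the Prdx1 peak of replicate 1 did not enter. The 12 peaks at the loci numbered 5 to 7 when a replicate was left out. The best Txnrd1 peak, in the top 1.64% of the lists on average, was in the top 2.59% of chromosomes 2 to 19, the top 2.08% of isolated peaks (fewer than 2 other peaks within 100 kb) and the top 2.54% by score per bp of width. On chromosomes 2 to 19 alone, the best Srxn1 peak went from the top 6.34% to 8.35%. There the best Txn1 peak went from 8.37% to 10.3%, and that of Prdx1 from 33.7% to 36.0%. By score per bp the best Txn1 peak moved from the top 8.37% to 18.8%. That of Prdx1 went from 33.7% to 53.7%, which still counted as within the spread of its replicates, 24.1. The cause was not tested for either. The mean score of the best Prdx1 peak, 148, became 243 as the sum over all peaks of the window, because that sum adds the 2 further peaks of replicate 2. Among isolated peaks Prdx1 gave no value, because its replicate 2 peaks had 2 others within 100 kb. The motif TGANTCAGC, added after the sequences were seen, was held by 2 genes in place of 3. No paired analysis was possible because all ChIP samples belong to the same group. The unknown depth limits any reading of peaks found in 1 list only.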
